A study of Mus musculus with 15 samples.

Results

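The genes described here encode the histone methyltransferase Dot1l and 9 proteins that bind it, share its binding partners or drive transcription elongation: Mllt1, Mllt3, Mllt6, Mllt10, Aff1, Aff3, Aff4, Kmt2a and Cdk9. They were taken by symbol from the table of raw read counts, and all 10 were found among its 33340 genes. Whole lungs of C57BL/6 mice, male and 10 to 12 weeks old, were sequenced without treatment (day 0, 4 libraries) and 7, 14 and 21 days after a single dose of bleomycin, 5 U/kg, placed in the trachea (4, 4 and 3 libraries). Bleomycin damages DNA and leads to inflammation followed by scarring, and no group carried a transgene or a deletion. Each library is polyadenylated RNA of whole lung, so fewer cells of a type and less RNA per cell cannot be told apart.

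Dot1l is the enzyme that adds methyl groups to lysine 79 of histone H3 (H3K79), a mark found along the bodies of transcribed genes. It has no reader domain of its own for acetylated histones and is brought to chromatin by Mllt10 and Mllt6, a pair of related adaptor proteins, and by Mllt1 and Mllt3, whose YEATS domains bind acylated histone H3. Mllt1 and Mllt3 can instead join the AFF scaffold proteins and Cdk9, the kinase of the positive elongation factor P-TEFb, in the super elongation complex, which releases paused RNA polymerase II. Kmt2a is the histone H3 lysine 4 methyltransferase whose gene is fused to several of these partner genes in acute leukaemia, where Dot1l is then recruited to Kmt2a target genes.

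Library totals ran from 15652008 to 18020661 counts, and the 10 genes held 307 to 4658 counts each in every library. The share of counts from 16 mitochondrial genes differed among libraries of a single day, from 2.28 and 2.31% in day 0 replicates 1 and 2 to 4.22 and 4.04% in replicates 3 and 4, from 2.03 to 2.15% at day 7, from 2.10 to 4.14% at day 14 and from 2.66 to 4.01% at day 21. It is not a batch named by the labels. Day 0 replicate 4 is titled a control but carries bleomycin in its treatment label. It was kept in day 0, and among the calls of the 10 genes against day 0, leaving it out ended that of Mllt10 at day 21. The series' design text gives 3 replicates a day, while the titles give 4, 4, 4 and 3, which were used. The labelled tissue was checked on 5 alveolar type 2 and 5 endothelial markers, none of which was at 0 in any group.

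Levels are given as CPM, counts relative to the size of each library after scaling by trimmed mean of M values (TMM), and a gene was said to change where edgeR's quasi-likelihood test gave a Benjamini-Hochberg adjusted p under 0.05 over the 17457 genes tested, all 10 genes described here among them. At day 7, 3 of the 10 genes fell (Mllt6, Mllt10 and Aff3) and none rose, where 25.0% of all genes tested changed, 10.8% lower and 14.2% higher. At day 14, 4 fell (Mllt3, Mllt6, Mllt10 and Aff3) and Dot1l rose, against 33.1% of all genes, 15.2% lower and 17.9% higher. At day 21 the same 5 genes changed in the same directions, against 29.8% of all genes, 13.3% lower and 16.5% higher. In a test of any difference among the 4 days, these 5 genes passed, against 39.9% of all genes. With a fold change over 1.5 required as well, 2 genes passed at day 7 (Mllt6 and Aff3), 3 at day 14 (Mllt3, Mllt6 and Aff3) and 3 at day 21 (Dot1l, Mllt6 and Aff3), against 16.1, 23.1 and 22.5% of all genes. The median log2 fold change of the 9 partners was -0.23, -0.29 and -0.24 at days 7, 14 and 21, beside 0.01, 0.02 and 0.02 over all genes tested. The 3 comparisons share the day 0 libraries.

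**Figure D1:**
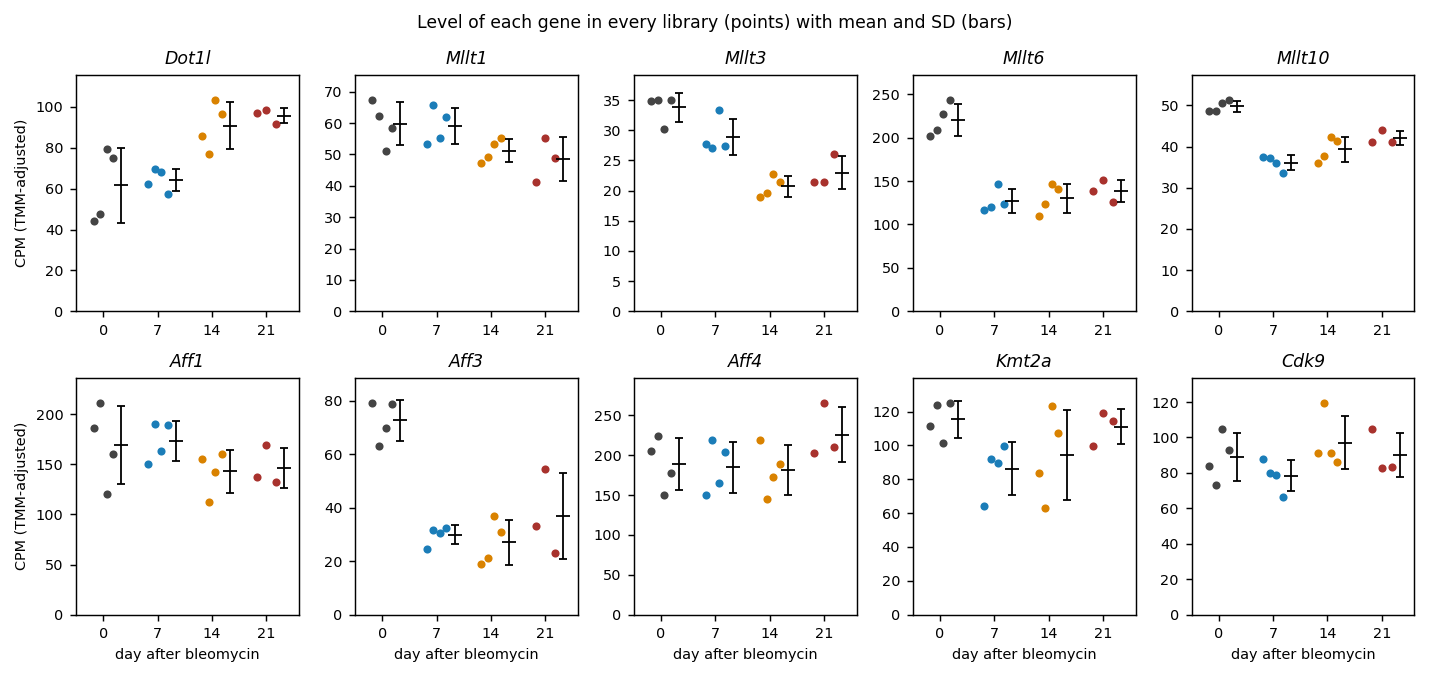
Level of each gene in TMM-adjusted CPM (vertical axes from 0, scaled per gene) in each of the 15 libraries by day after bleomycin, with the mean and SD of each day beside its points. Dot1l is higher at days 14 and 21, Mllt3, Mllt6, Mllt10 and Aff3 are lower than at day 0, and the day 0 points of Dot1l form a low pair (44.3 and 47.4 CPM) and a high pair (79.4 and 75.1 CPM).

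Dot1l, on chromosome 10 (80755206 to 80795461, plus strand, GRCm38; ENSMUSG00000061589), was measured at 44.3, 47.4, 79.4 and 75.1 CPM in day 0 replicates 1 to 4. It stood at 62.5, 69.4, 67.9 and 57.4 CPM at day 7, at 86.0, 77.2, 103 and 96.6 CPM at day 14, and at 97.2, 98.3 and 91.5 CPM at day 21. The day 7 values lay between the low and the high pair of day 0, day 14 replicate 2 fell inside the day 0 range, and all 3 day 21 libraries lay above every day 0 library, as did those of 19.4% of all genes. The log2 fold change against day 0 was 0.06 (SE 0.17, adjusted p = 0.814) at day 7, 0.56 (SE 0.17, adjusted p = 0.0174) at day 14 and 0.64 (SE 0.18, adjusted p = 0.0139) at day 21. Day 21 also exceeded day 7, by 0.57 on the log2 scale (adjusted p = 0.0459), a difference that passed for 12.6% of all genes and for no other gene of the 10. The call was lost when any library of either day was left out, at log2 values of 0.52 to 0.61 (adjusted p from 0.0594 to 0.126). The value was 0.26 (adjusted p = 0.356) with the log2 of the mitochondrial share in the fit. All 4 day 14 libraries lay above every day 7 library as well. This log2 difference of 0.50 did not pass in edgeR (adjusted p = 0.0796) but did in DESeq2 (0.51, adjusted p = 0.0386) and in an edgeR fit to the 2 groups alone (0.50, adjusted p = 0.0303). The low pair of day 0 libraries was the pair of low mitochondrial share, and the rise did not hold without either of them: the log2 fold change was 0.40 (adjusted p = 0.0713) at day 14 and 0.47 (adjusted p = 0.0550) at day 21 without replicate 1, and 0.43 (adjusted p = 0.0753) and 0.49 (adjusted p = 0.0576) without replicate 2. At day 21 it was 0.58 (adjusted p = 0.0504) without day 21 replicate 2, and in fits to the 2 groups alone it was 0.53 (adjusted p = 0.0650) at day 14 and 0.60 (adjusted p = 0.0585) at day 21. Among libraries with a mitochondrial share over 3.5%, the day 14 value was 0.25 (adjusted p = 0.291), and among those under 2.5% the day 7 value was 0.47 (adjusted p = 0.0196). The fit over 3.5% held only day 0 replicates 3 and 4, beside day 14 replicates 2 to 4. The fit under 2.5% held only day 0 replicates 1 and 2, beside all 4 day 7 libraries. Day 0 replicate 4 is the control with bleomycin in its treatment label. With so few day 0 libraries, a call lost in these fits does not show that the change is absent. In a fit to all 15 libraries that also held the log2 of the mitochondrial share, the values were 0.38 (adjusted p = 0.153), 0.55 (adjusted p = 0.00457) and 0.64 (adjusted p = 0.00290) at days 7, 14 and 21.

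Mllt10 and Mllt6, the AF10 and AF17 adaptors, fell at all 3 days, as did Aff3. Mllt10 binds the coiled coil region of Dot1l and is needed for the higher methylation states of H3K79, and Mllt6 is its paralogue. The 250 bases before the RefSeq transcription start nearest to the annotated gene start are shown for the enzyme and this pair, because the enzyme gene rose while both adaptor genes fell. They are written 5′ to 3′ on the strand of the gene, from RefSeq on GRCm38.p6: Dot1l chr10:80754953-80755202 (plus strand), Mllt6 chr11:97663162-97663411 (plus strand) and Mllt10 chr2:18054987-18055236 (plus strand). Capitals mark CAGAC, a short SMAD-binding motif, read on both strands.
Dot1l: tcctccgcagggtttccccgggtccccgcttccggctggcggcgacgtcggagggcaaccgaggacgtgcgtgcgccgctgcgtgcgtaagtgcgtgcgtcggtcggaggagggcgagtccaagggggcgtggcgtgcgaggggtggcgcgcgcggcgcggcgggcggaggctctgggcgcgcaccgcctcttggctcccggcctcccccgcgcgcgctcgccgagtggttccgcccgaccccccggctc
Mllt6: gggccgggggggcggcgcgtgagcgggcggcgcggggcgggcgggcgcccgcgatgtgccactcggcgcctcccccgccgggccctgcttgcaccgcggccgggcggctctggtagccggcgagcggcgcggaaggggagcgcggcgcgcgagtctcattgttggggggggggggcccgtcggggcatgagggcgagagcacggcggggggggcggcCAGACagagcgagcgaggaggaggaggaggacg
Mllt10: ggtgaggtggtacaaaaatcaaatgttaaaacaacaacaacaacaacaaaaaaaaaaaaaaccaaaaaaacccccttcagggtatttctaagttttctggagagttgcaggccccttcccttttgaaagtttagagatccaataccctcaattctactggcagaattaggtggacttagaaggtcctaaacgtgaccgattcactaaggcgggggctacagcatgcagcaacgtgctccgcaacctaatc

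The Dot1l and Mllt6 windows are 78.4 and 81.6% G and C, beside a median of 52.4% over 32851 RefSeq promoter windows of the same length, and the Mllt10 window, at 1 of 3 RefSeq starts of that gene, is 42.4% G and C. All 10 genes had a window, but those of Aff1 and Aff3 lie 61788 and 37711 bases from the annotated gene start, since no RefSeq start nearer to it was in the table. CAGAC or its reverse complement GTCTG was present in 2 of them, that of Mllt6 (33 bases before the start) and that of Aff4 (232 bases before it), where 42.2% of all windows hold it. CCGGAC or GTCCGG, a longer motif that does not contain CAGAC, was in 0 of the 10 windows and in 7.44% of all windows. The absence of these letters says nothing about binding elsewhere.

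Mllt6 (ENSMUSG00000038437, chromosome 11, 97663414 to 97685463, plus strand) was measured at 202, 209, 227 and 243 CPM at day 0, at 116, 120.2, 147 and 123 CPM at day 7, at 109.9, 124, 147 and 140.4 CPM at day 14 and at 139, 151 and 125 CPM at day 21. Every library after bleomycin lay below every day 0 library. The log2 fold change was -0.80 (SE 0.11, adjusted p = 0.000277), -0.76 (SE 0.11, adjusted p = 0.000171) and -0.67 (SE 0.13, adjusted p = 0.0010) at days 7, 14 and 21. It was -0.71 (adjusted p = 0.0039) at day 7 and -0.79 (adjusted p = 0.00676) at day 14 among libraries of like mitochondrial share, in the small fits described for Dot1l.

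Mllt10 (ENSMUSG00000026743, chromosome 2, 18055237 to 18212388, plus strand) was measured at 48.5, 48.7, 50.6 and 51.3 CPM at day 0, at 37.5, 37.3, 35.9 and 33.5 CPM at day 7, at 35.9, 37.8, 42.4 and 41.3 CPM at day 14 and at 41.1, 44.0 and 41.1 CPM at day 21. All later libraries lay below all day 0 libraries, and the lowest was day 7 replicate 4. The log2 fold change was -0.47 (SE 0.08, adjusted p = 0.00109) at day 7, -0.34 (SE 0.08, adjusted p = 0.00493) at day 14 and -0.24 (SE 0.09, adjusted p = 0.0485) at day 21. The day 21 call was lost without day 0 replicates 3 or 4 or day 21 replicates 1 or 3 (adjusted p from 0.0533 to 0.0855), and also with total count scaling, with no filter and in a fit to the 2 groups alone (adjusted p from 0.0636 to 0.144), and the day 14 call was lost among libraries over 3.5% mitochondrial share (-0.34, adjusted p = 0.0992). Mllt10 shares 749 exonic bases with Dnajc1 on the opposite strand, which held 797 to 1327 counts, and the strand setting of the counting is not stated, so reads in that stretch cannot be assigned to either gene.

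Mllt3 and Mllt1, the YEATS domain proteins AF9 and ENL, are paralogues that read acylated histone H3 and bind Dot1l or an AFF scaffold through the same region. Mllt3 (ENSMUSG00000028496, chromosome 4, 87769925 to 88033364, minus strand) was measured at 34.9, 35.0, 30.2 and 35.0 CPM at day 0, at 27.8, 27.0, 33.3 and 27.5 CPM at day 7, at 19.0, 19.6, 22.8 and 21.4 CPM at day 14 and at 21.4, 21.4 and 26.1 CPM at day 21. Day 7 overlapped day 0 through its replicate 3, while days 14 and 21 lay below every library of day 0. The log2 fold change was -0.23 (SE 0.11, adjusted p = 0.135) at day 7, -0.71 (SE 0.11, adjusted p = 0.000194) at day 14 and -0.56 (SE 0.12, adjusted p = 0.00246) at day 21. Mllt3 was the gene of the 10 that passed between days 7 and 14 in the fit to all libraries, by -0.48 on the log2 scale (adjusted p = 0.0194), where 7.36% of all genes did. That call was lost without day 7 replicate 3 (-0.41, adjusted p = 0.0615), without day 14 replicate 2 (-0.45, adjusted p = 0.0580) and in the fit that also held the log2 of the mitochondrial share (-0.45, adjusted p = 0.127).

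Mllt1 (ENSMUSG00000024212, chromosome 17, 56892611 to 56935415, minus strand) was measured at 67.4, 62.3, 51.0 and 58.5 CPM at day 0, at 53.4, 65.8, 55.3 and 61.8 CPM at day 7, at 47.4, 49.2, 53.3 and 55.1 CPM at day 14 and at 41.4, 55.4 and 48.8 CPM at day 21. The day 0 and later ranges overlapped at each day. Its log2 fold change was -0.02 (95% interval -0.26 to 0.22), -0.22 (-0.46 to 0.02) and -0.30 (-0.56 to -0.04) at days 7, 14 and 21, with adjusted p = 0.926, 0.145 and 0.076. The day 21 value passed the test without day 0 replicate 3 (-0.40, adjusted p = 0.0270) and without day 21 replicate 2 (-0.45, adjusted p = 0.0251).

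**Figure D2:**
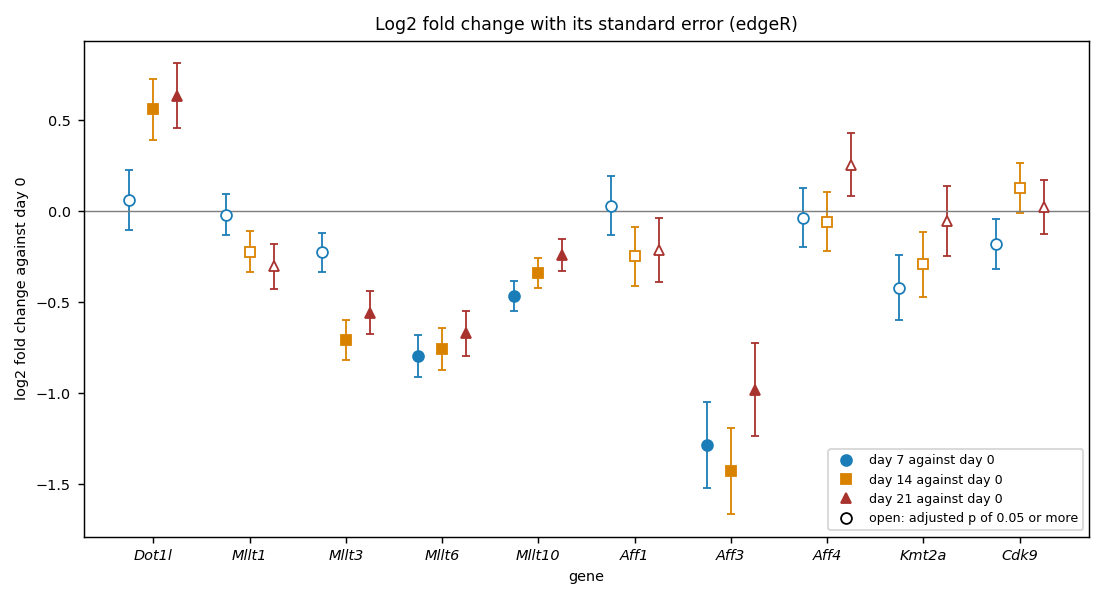
Log2 fold change of each gene at days 7, 14 and 21 against day 0, with bars of 1 standard error, from the edgeR fit to all 15 libraries. Filled symbols passed at an adjusted p under 0.05. Dot1l holds the 2 filled symbols above 0, and Mllt3, Mllt6, Mllt10 and Aff3 hold the 11 below it.

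Among the AFF scaffolds, Aff3 fell and Aff1 and Aff4 did not pass the test. Aff1 and Aff4 are broadly expressed scaffolds of the super elongation complex, and Aff3 was first described as a nuclear protein of lymphoid cells. Aff3 (ENSMUSG00000037138, chromosome 1, 38177326 to 38664955, minus strand) was measured at 79.1, 63.0, 70.0 and 78.6 CPM at day 0, at 24.7, 31.6, 30.6 and 32.4 CPM at day 7, at 18.9, 21.2, 37.0 and 31.0 CPM at day 14 and at 33.0, 54.5 and 23.0 CPM at day 21. No later library reached the lowest library of day 0, and day 21 had the widest spread, with replicate 2 nearest to day 0. The log2 fold change was -1.28 (SE 0.24, adjusted p = 0.00155) at day 7, -1.43 (SE 0.24, adjusted p = 0.000368) at day 14 and -0.98 (SE 0.26, adjusted p = 0.00961) at day 21, the lowest of the 10 genes at each day. Only 3.61, 4.61 and 8.32% of the genes tested had a lower value at the 3 days. Markers of B cells moved as well: of 4 markers (Ms4a1, Cd79a, Cd79b and Pax5), 0 passed at day 7 and 4 fell at days 14 and 21, with a summed level of 59.4 to 119 CPM at day 0, 25.3 to 99.96 CPM at day 7, 13.5 to 47.6 CPM at day 14 and 16.9 to 24.9 CPM at day 21. Their part in the fall of Aff3 was not tested.

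Aff1 (ENSMUSG00000029313, chromosome 5, 103692374 to 103855322, plus strand) was measured at 187, 211, 121 and 160.4 CPM at day 0, at 150.1, 191, 163 and 189 CPM at day 7, at 156, 113, 143 and 161 CPM at day 14 and at 137, 169.6 and 132 CPM at day 21. Its day 0 range was wider than that of any later day, and its log2 fold change was 0.03 (95% interval -0.31 to 0.37), -0.25 (-0.59 to 0.10) and -0.21 (-0.59 to 0.16). Aff4 (ENSMUSG00000049470, chromosome 11, 53350833 to 53421830, plus strand) was measured at 205, 224, 149.8 and 177 CPM at day 0, at 149.9, 219, 165 and 204 CPM at day 7, at 219, 145, 173 and 189 CPM at day 14 and at 202, 265 and 210.0 CPM at day 21. All 3 day 21 libraries exceeded 200 CPM, but 2 of the day 0 libraries did so too, and the log2 fold change was -0.03 (-0.38 to 0.31), -0.06 (-0.40 to 0.29) and 0.26 (-0.11 to 0.63).

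Cdk9 and Kmt2a did not pass the test at any day. Cdk9 (ENSMUSG00000009555, chromosome 2, 32705784 to 32713076, minus strand), which phosphorylates RNA polymerase II and the pausing factors, was measured at 83.9, 73.0, 105 and 92.9 CPM at day 0, at 88.0, 79.8, 78.7 and 66.7 CPM at day 7, at 91.2, 119, 91.3 and 86.2 CPM at day 14 and at 104.6, 82.5 and 83.4 CPM at day 21. Its log2 fold change was -0.18 (95% interval -0.47 to 0.11), 0.13 (-0.16 to 0.42) and 0.02 (-0.29 to 0.34), with overlapping groups throughout. Kmt2a (ENSMUSG00000002028, chromosome 9, 44803355 to 44881296, minus strand) was measured at 111, 124, 101 and 125 CPM at day 0, at 63.9, 92.2, 89.4 and 99.5 CPM at day 7, at 83.8, 62.8, 123 and 107 CPM at day 14 and at 99.5, 119 and 115 CPM at day 21. All 4 day 7 libraries lay below all day 0 libraries, but the log2 fold change of -0.42 (-0.80 to -0.04) had an adjusted p of 0.0952. It passed in a fit to the day 0 and day 7 libraries alone (-0.45, adjusted p = 0.0281) and in a fit with length and GC offsets (-0.40, adjusted p = 0.0272). At days 14 and 21 the log2 fold change was -0.29 (-0.67 to 0.09) and -0.06 (-0.46 to 0.35).

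Counting the genes whose groups did not overlap, 4 of the 10 lay wholly below day 0 at day 7 (Mllt6, Mllt10, Aff3 and Kmt2a), against 13.2% of all genes, and 4 at days 14 and 21 (Mllt3, Mllt6, Mllt10 and Aff3), against 14.4 and 16.0% of all genes. Between days 14 and 21 no gene of the 10 changed by edgeR or by DESeq2. In edgeR 0% of all genes passed that comparison, and at an unadjusted p under 0.05 it held 0 of the 10 genes and 9.82% of all genes.

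The partners were next set against the enzyme within each library, as the log2 ratio of partner to Dot1l, which needs no scaling between libraries. The ratios are not corrected for transcript length, so they are given relative to day 0 and say nothing of which gene is the higher. All 9 mean ratios were below their day 0 value at each of the 3 days. Of all genes tested, 54.9, 82.9 and 83.3% had a lower log2 fold change than Dot1l at days 7, 14 and 21, so a fall of the ratio at days 14 and 21 was shared by most genes. The geometric mean ratio of Mllt6 to Dot1l was 0.533, 0.389 and 0.391 times its day 0 value at days 7, 14 and 21. That of Aff3 was 0.381, 0.238 and 0.298 times, and that of Mllt3 0.792, 0.405 and 0.423 times. The ratio of Mllt1 was at 0.918, 0.568 and 0.504 times its day 0 value, and that of Mllt10 at 0.672, 0.521 and 0.527 times. The day 0 ratios were widely spread, since they carry the low and high pair of Dot1l. For Aff1, for example, the log2 ratio ran from 0.60 to 2.15 at day 0 and from 0.47 to 0.86 at day 14.

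**Figure D3:**
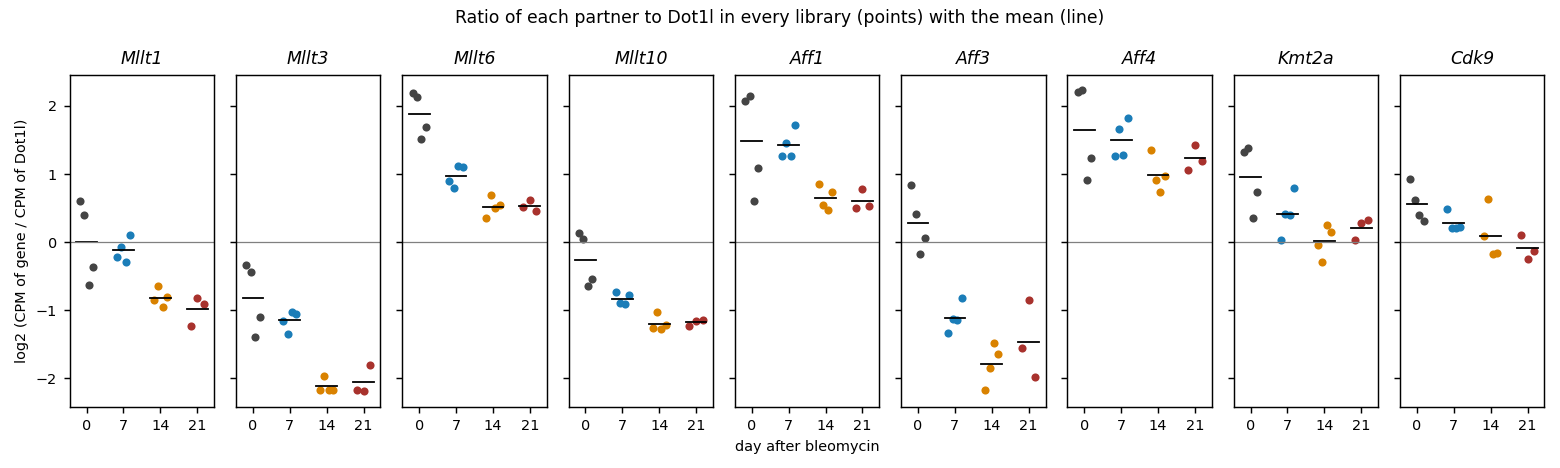
Log2 ratio of the CPM of each of the 9 partners to that of Dot1l, not corrected for length, in each of the 15 libraries, by day, with the mean of each day as a line. The mean is below that of day 0 at every later day for every partner, and for Mllt6, Mllt10 and Aff3 no later library overlaps day 0, while 82.9 and 83.3% of all genes had a lower fold change than Dot1l at days 14 and 21.

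By an exact two-sided permutation test over libraries, 0 of the 27 ratio changes passed after Benjamini-Hochberg adjustment. At day 7, Mllt6 (-0.91 on the log2 scale), Mllt10 (-0.57) and Aff3 (-1.39) reached the smallest exact p that 4 against 4 libraries allow, 0.0286 (adjusted p = 0.0857). At day 14, 6 partners reached it (Mllt1 -0.82, Mllt3 -1.30, Mllt6 -1.36, Mllt10 -0.94, Aff3 -2.07 and Kmt2a -0.93). At day 21 the smallest exact p that 3 against 4 libraries allow is 0.0571 (adjusted p = 0.0964), which 7 partners reached. The 3, 6 and 7 partners at these limits are those whose groups did not overlap, where 16.0, 34.7 and 47.0% of all genes had a ratio to Dot1l without overlap. In limma on the ratio of every tested gene to Dot1l, a test added after the data were seen, 2, 7 and 8 of the 9 partners changed at days 7, 14 and 21, against 11.3, 47.2 and 49.8% of all genes. Dot1l is in every ratio, so the calls of all genes share its change. At day 7, where Dot1l itself did not pass the test, the 2 partners that passed in limma were Mllt6 (adjusted p = 0.0072) and Aff3 (adjusted p = 0.0042).

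Levels were also compared among libraries of a single day. After each gene's day means were removed, Pearson's r with Dot1l over 15 libraries was 0.60 for Mllt6 (permutation p = 0.0202, adjusted p = 0.0911, Spearman's rho 0.67, permutation p = 0.0188, adjusted p = 0.0844) and 0.57 for Mllt10 (permutation p = 0.0089, adjusted p = 0.0803, Spearman's rho 0.70, permutation p = 0.0037, adjusted p = 0.0337), above the r of 93.0 and 91.9% of all genes tested. The other 7 had r from -0.42 (Aff1) to 0.35 (Cdk9), and 0 of 9 passed on Pearson's r. Without day 0 replicates 1 and 2, the libraries farthest from the median of Dot1l, r was 0.58 (permutation p = 0.133) for Mllt6 and 0.74 (permutation p = 0.0544) for Mllt10. It was 0.59 (permutation p = 0.160) for Kmt2a and 0.57 (permutation p = 0.0691) for Aff3. Mllt6 thus no longer stood above Kmt2a. The mitochondrial share moved with these levels in the same libraries, with r within days of 0.70 for Dot1l, 0.67 for Mllt6, 0.57 for Mllt10, 0.56 for Cdk9, 0.40 for Aff3, 0.01 for Kmt2a, -0.12 for Mllt3, -0.32 for Mllt1, -0.56 for Aff1 and -0.64 for Aff4. With the share removed as well, r with Dot1l was 0.24 for Mllt6 and 0.30 for Mllt10, and the largest of the 9 was 0.32, that of Kmt2a (adjusted p = 0.941 for all 9).

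**Figure D4:**
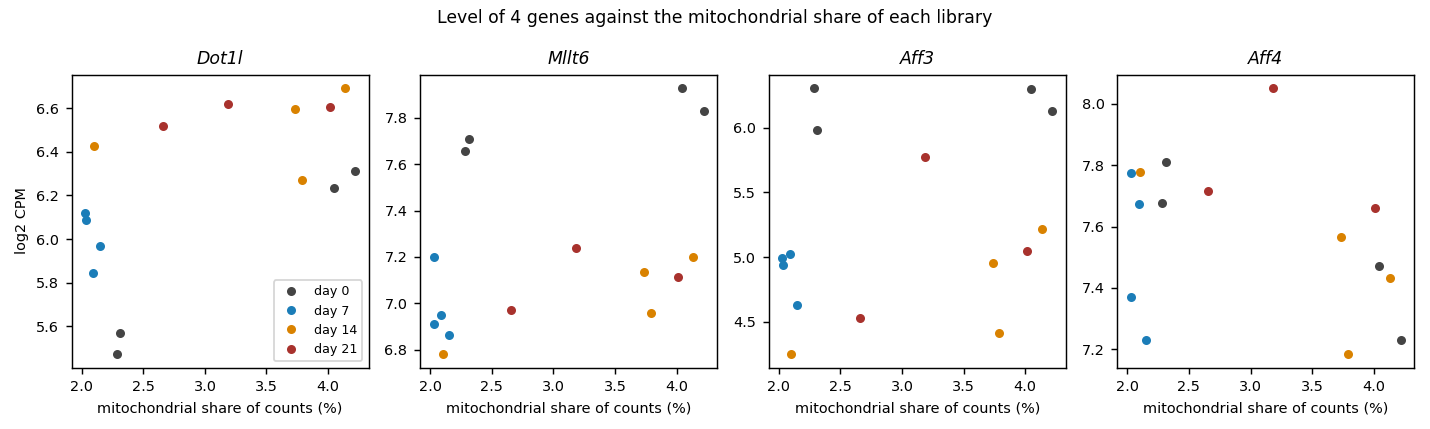
Level of Dot1l, Mllt6, Aff3 and Aff4 (log2 CPM) against the percentage of counts from mitochondrial genes, with each of the 15 libraries as a point coloured by day. Within day 0, Dot1l is higher in the 2 libraries of high share and Aff4 lower, while Mllt6 and Aff3 are lower after bleomycin at both low and high share.

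Over all 15 libraries, with days left in, the genes whose pattern was most like that of Dot1l were Meis3 (r = 0.92), Prmt9 (0.92), Plekhg2 (0.92), Zmynd15 (0.92) and Cep152 (0.91), out of 12243 genes with a mean of at least 5 CPM. None of the 9 partners was near them. Cdk9 had r = 0.46, Kmt2a 0.08, Aff4 0.01, Mllt10 -0.10, Mllt6 -0.31, Aff3 -0.36, Aff1 -0.59, Mllt1 -0.69 and Mllt3 -0.72. These values describe the shape over days and carry no test.

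Levels of different genes were compared per kilobase of exon. At day 0 the order of mean CPM per kilobase was Mllt6 (29.6), Cdk9 (19.2), Aff1 (17.9), Mllt1 (15.3), Aff4 (14.1), Aff3 (10.9), Mllt10 (8.43), Dot1l (7.07), Kmt2a (6.92) and Mllt3 (2.81). Mllt6 lay above every other gene without overlap, Cdk9 to Aff3 overlapped each with its neighbour, as did Mllt10 to Kmt2a, and Mllt3 lay below all. At day 14 the order was Cdk9 (21.0), Mllt6 (17.5), Aff1 (15.1), Aff4 (13.5), Mllt1 (13.1), Dot1l (10.4), Mllt10 (6.66), Kmt2a (5.65), Aff3 (4.06) and Mllt3 (1.72). Dot1l then lay above its adaptor Mllt10 without overlap (and also at days 7 and 21). The length used for Mllt10 includes the 749 exonic bases shared with Dnajc1, where reads cannot be assigned. Its level per kilobase may therefore be off, and the lack of overlap with Dot1l is less sure for it. Mllt6 overlapped Cdk9, and Aff3 had gone from place 6 to place 9, where its range overlapped that of Kmt2a in place 8. Mllt3 was the lowest at each day, with no overlap.

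Among other genes of the same machinery, some rose and some fell. These lists, like the 10 genes, were chosen with earlier results of these data known. Of the other subunits and regulators of the super elongation complex and P-TEFb, 12 of 13 could be tested (Ell3 was below the filter), and 3 rose and 4 fell at day 7, 1 rose and 2 fell at day 14, and 1 rose and 2 fell at day 21. The 7 of 12 that changed at day 7 stand beside 25.0% of all genes, and the 3 of 12 at days 14 and 21 beside 33.1 and 29.8%. The cyclin of P-TEFb encoded by Ccnt2 fell at day 7 (log2 fold change -0.67, adjusted p = 0.0075) and was at -0.20 at both later days. Mepce, which caps the 7SK RNA that holds P-TEFb inactive, fell at all 3 days (-0.41, -0.37 and -0.61), and Hexim1, the protein inhibitor in the same particle, fell at days 14 and 21 (-0.30 and -0.40). Larp7, another protein of this particle, instead rose at day 7 (0.40, adjusted p = 0.0199) and did not pass at days 14 and 21 (0.18 and -0.04). The elongation factor Ell fell at day 7 (-0.45, adjusted p = 0.0266), while Ell2 rose at days 7 and 14 (0.40 and 0.33).

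Of 19 pausing and elongation factors, 2 rose and 2 fell at day 7, 3 rose and 2 fell at day 14, and 1 rose and 3 fell at day 21, in both directions together a smaller share than that of all genes at each day. Leo1, a subunit of the PAF1 complex, rose at days 7 and 14 (0.80, adjusted p = 0.0159, and 0.70, adjusted p = 0.0216). Of the other factors of this complex, Ctr9 rose at day 14 (0.36, adjusted p = 0.0221). In contrast, Rtf1 fell at days 7 and 14 (-0.35, adjusted p = 0.0104, and -0.35, adjusted p = 0.0062) and Paf1 fell at day 21 (-0.29, adjusted p = 0.0368). Supt4a, a subunit of the DSIF pausing factor, fell at day 7 (-0.53, adjusted p = 0.0038). Of the negative elongation factor NELF, Nelfe rose at day 7 (0.42) and Nelfb fell at days 14 and 21 (-0.29 and -0.42), as did Nelfa at day 21 (-0.30, adjusted p = 0.0488). Of 12 other KMT2 methyltransferases and complex subunits, 1 rose and 1 fell at day 7, 2 fell at day 14 and 1 fell at day 21, again a smaller share in both directions together. Kmt2c fell at days 7 and 14 (-0.42 and -0.53), Setd1b at day 14 (-0.40) and Men1, the scaffold menin, at day 21 (-0.42), and Ash2l rose at day 7 (0.31). The median log2 fold changes of the 3 lists lay between -0.16 and -0.03.

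The genes that Kmt2a fusions and Dot1l keep active in leukaemia are mostly homeobox genes and regulators of blood progenitors. Of 14 such genes, 12 could be tested, since Hoxa9 and Hoxa10 were below the filter. At day 7, Flt3, a receptor of blood progenitors and dendritic cells, was the 1 gene that rose (0.91, adjusted p = 0.0324) and 0 of the 12 fell, beside 14.2% of all genes that rose and 10.8% that fell. There were 3 that fell and 0 that rose at day 14, and 3 and 0 at day 21, beside 15.2 and 13.3% of all genes that fell and 17.9 and 16.5% that rose. The homeobox gene Meis1 fell at days 14 and 21 (-0.59, adjusted p = 0.0107, and -0.71, adjusted p = 0.0072), as did Eya1 (-0.92 and -1.42) and Pbx3 (-0.29 and -0.34).

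The nuclear RNAs Neat1 and Malat1 fell at day 7 (-1.25, adjusted p = 0.0059, and -0.65, adjusted p = 0.0238), and 0 of 3 such RNAs passed against day 0 at days 14 and 21. Set against day 7, 3 of 3 were higher at day 14 and 1 of 3 at day 21. The mitochondrial share was low in all 4 day 7 libraries, but also in day 0 replicates 1 and 2 (2.28 and 2.31%). Whether these RNAs track the nuclear RNA that a library holds was not tested. The makeup of the lung moved too: of 5 markers each, those of alveolar type 2 cells fell in 0, 3 and 5 at the 3 days, and those of endothelium in 1, 4 and 3. Markers of macrophages rose in 2, 5 and 4 of 5, those of fibroblasts in 3 of 5 at each day and those of dividing cells in 5 of 5 at each day. Of 4 neutrophil markers 3, 1 and 3 fell, and of 4 adipocyte markers 0, 4 and 3 fell. The summed level of the macrophage markers ran from 321 to 372 CPM at day 0 and from 509.6 to 674 CPM at day 7. It ran from 614 to 1426 CPM at day 14 and from 642 to 1172 CPM at day 21, the days on which Dot1l was higher. The part of these changes in the levels of the 10 genes was not tested.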

How the data were processed

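Reads were trimmed (TrimGalore) and aligned to mm10/GRCm38 with HISAT2 2.1.0 by the authors, who excluded multi-mapped reads and deposited raw HTSeq 0.6.0 counts per Ensembl gene, without normalization (versions from the submitters' processing notes). Annotation release and strand setting are not given in the sources used here. The study calls the lung libraries biological replicates, but the labels do not tie each library to a mouse, so p-values measure the spread between these libraries, which may be technical in part.

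Symbols came from GENCODE M21 (33267 of 33340 identifiers matched). Counts were fitted with edgeR 4.0.16 in R 4.3.3 (TMM, filterByExpr by day, glmQLFit, glmQLFTest, all 15 libraries in 1 fit, common biological coefficient of variation 22.8%), tested on simulated data first. Log2 CPM used a prior count of 2. Permutation tests (exact for ratios, 100000 draws within days for correlations) used scipy 1.17.1, and limma 3.58.1 was added for the ratios. Alternatives were DESeq2 1.42.0, voom, other scalings and filters, the 2 groups alone, a replicate block, mitochondrial share, length and GC offsets, and each library left out. The 10 genes, the lists and the rule for named genes (up to 4 called genes with the largest change per list, and the 5 genes most like Dot1l) were chosen with earlier results of these data known. Ell2, Larp7, Nelfa, Rtf1, Paf1, Ctr9 and Pbx3 were named after their values were seen. From the lists, 2 genes are not reported here.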

Additional observations from a re-analysis of the deposited data

Results flagged for a closer look

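In groups of 4 libraries, 3 of 30 combinations of gene and day had a library far from the other 3 by Dixon's test at the 95% level, where chance gives about 5% of groups. Mllt3 stood at 30.2 CPM in day 0 replicate 3, below the other day 0 libraries at 34.9 to 35.0 CPM, and at 33.3 CPM in day 7 replicate 3, above the others at 27.0 to 27.8 CPM. Cdk9 stood at 119 CPM in day 14 replicate 2, above the others at 86.2 to 91.3 CPM.

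The change since day 0 differed between later days for 2 genes, by the edgeR contrast of the days themselves: Mllt3 was lower at day 14 than at day 7 (-0.48 on the log2 scale, adjusted p = 0.0194) and Dot1l was higher at day 21 than at day 7 (0.57, adjusted p = 0.0459). Neither call was stable: that of Mllt3 was lost without day 7 replicate 3, flagged above, and that of Dot1l without any library of either day.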

How the results depend on the processing

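Of the 15 changes called for single genes, 272 alternative values were computed: 243 stayed called in the same direction, 29 were no longer called and 0 changed direction. The calls of Mllt6 and Aff3 at all 3 days, of Mllt10 at day 7 and of Mllt3 at days 14 and 21 against day 0 held in every other fit, though with a fold change over 1.5 required Mllt10 was not called at any day, nor Mllt3 at day 21 or Dot1l at day 14. Against day 0, the number of changed genes among the 10 was 3 at day 7 whichever library was left out, and 4 to 5 at days 14 and 21. At day 7 it was 4 among libraries of like mitochondrial share (Dot1l as well, higher). It was also 4 at day 7 with the 2 groups alone or with length and GC offsets (Kmt2a as well, lower), and 2 with a fold change over 1.5. It was 3 at day 14 among libraries of like mitochondrial share, 3 at day 21 in a fit to the 2 groups alone, and 3 at both days with a fold change over 1.5. Like-share libraries were not fitted for day 21. For day 14 against day 7 it was 1, but 0 with mitochondrial share in the fit or a fold change over 1.5, 2 with the 2 groups alone or DESeq2 (Dot1l as well as Mllt3), and 0 to 1 without a library. For day 21 against day 7 it was 1, but 0 with total count scaling, mitochondrial share in the fit or a fold change over 1.5, 2 with length and GC offsets (Mllt3 as well as Dot1l), and 0 to 1 without a library, the 1 being Mllt3 (lower, without day 21 replicate 3) and not Dot1l. The limma test of ratios to Dot1l gave 2, 7 and 8 partners where the exact test gave 0, as it had to at day 21, where its smallest p is 0.0571, and nearly so at days 7 and 14, where it is 0.0286 before adjustment over 27 tests. Under total count scaling 1 partner (Mllt10) correlated with Dot1l. The causes were not tested. Counting alone gives an SD of 1.62 to 5.38% of a gene's level, beside 2.79 to 43.8% between libraries of a day, and in Mllt10 the spread between libraries was near the counting error (2.79 beside 3.496% at day 0, 4.01 beside 3.75% at day 21).

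Genes near 0 changed sign, none of them called. At day 7, Aff1 was -0.0047 with a mean of at least 1 CPM, -0.16 with mitochondrial share in the fit and -0.21 among like-share libraries, and Cdk9 was 0.0034 with the share in the fit. At day 14, Aff4 was 0.035 among like-share libraries and 0.024 with length and GC offsets, and Cdk9 was -0.0090 among like-share libraries. At day 21, Cdk9 was -0.019 with no filter, -0.00029 with a mean of at least 1 CPM and -0.0068 with the 2 groups alone. Leaving out libraries, log2 fold changes ran at day 7 from -0.095 to 0.18 (Dot1l), -0.11 to 0.017 (Mllt1), -0.12 to 0.13 (Aff1) and -0.15 to 0.034 (Aff4), at day 14 from -0.18 to 0.015 (Aff4) and -0.0081 to 0.20 (Cdk9), and at day 21 from -0.13 to 0.082 (Cdk9). Day 7 ratios to Dot1l ran from -0.34 to 0.078 (Mllt1), -0.35 to 0.17 (Aff1) and -0.39 to 0.054 (Aff4). Correlations with Dot1l without the 2 farthest libraries were 0.23 (Mllt1), 0.30 (Mllt3), 0.32 (Aff1), 0.18 (Aff4) and -0.21 (Cdk9). That of Mllt3 was 0.075 under total count scaling, and with mitochondrial share removed they were 0.023 (Mllt3), 0.19 (Aff4) and -0.080 (Cdk9).

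Replicate numbers were not treated as pairs. Of 21 same-numbered pairs, 8 had deviations that correlated over 0.1 and 3 under -0.1 (range -0.24 to 0.40). Pairs of unlike number were not computed, so these values cannot decide whether the numbers pair the libraries. With replicate number as a block, 3, 5 and 4 of the 10 genes changed at days 7, 14 and 21, as Mllt10 at day 21 was no longer called (-0.24, adjusted p = 0.0908), and Cdk9 was at -0.017.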
